A study of Mus musculus with 10 samples.

Results

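Cytosolic ribosomal proteins are the protein part of the ribosomes that translate nuclear mRNAs. The genes were taken by name, as every protein-coding gene whose symbol has the form Rpl, Rps or Rplp followed by a number and, at most, 1 of the letters a, l or x, together with Rpsa. The rule found 80 genes among 54309 annotated genes, of which 31 encode proteins of the small (40S) subunit and 49 encode proteins of the large (60S) subunit, 3 of them the P stalk proteins Rplp0, Rplp1 and Rplp2. Genes of ribosomal proteins with other names, such as Rack1, Fau and Rps3a1, were left out by this rule and are described separately.

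Dorsal root ganglia (DRG) hold the cell bodies of sensory neurons together with satellite glia, Schwann cells, fibroblasts, vessels and resident macrophages. The study cut the left sciatic nerve of C57BL/6 mice aged 6 to 8 weeks (axotomy), or exposed it without cutting in a separate cohort (sham), and collected the lumbar 4 and 5 DRG of the operated side 24 h later. The 10 mRNA libraries comprised 3 of female axotomy, 2 of female sham, 3 of male axotomy and 2 of male sham DRG, and each library pooled the ganglia of 2 mice. No transgene or further treatment is named for any group, and the shams underwent anesthesia, incision and suture as well, so that the comparison is of nerve transection at a single early time against surgery without it.

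The depth was 55258476 to 90111671 estimated counts per library, and a count of 3, the limit that a count of 0 allows, corresponded to 0.0331 to 0.0542 normalized counts scaled to the library total (CPM). The summed CPM of the sensory neuron markers Tubb3, Isl1, Avil, Prph, Nefh and Scn9a was 5348 to 8381 in the 10 libraries, so that markers of the labelled tissue were present in each. A gene was called when its adjusted p-value (padj, edgeR quasi-likelihood test with Benjamini-Hochberg adjustment over all 20836 genes tested) was below 0.1. The log2 fold change (log2FC) is axotomy over sham unless another direction is named. Ganglia of separate pairs of mice were compared, so the p-values measure the spread between these pools.

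Ribosomal proteins are needed in nearly equal numbers for each ribosome, and their mRNAs are short and abundant in nearly all cells. Most of them begin with a 5′ terminal oligopyrimidine (TOP) tract, a C followed by a run of pyrimidines, through which the mTOR kinase and the protein Larp1 set their translation and stability together. Peripheral axotomy is known to raise protein synthesis in sensory neurons, and mRNAs of ribosomal proteins are also carried into their axons.

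Of the 80 genes, 78 passed the filter on low counts. Rpl10l and Rpl39l, paralogs of Rpl10 and Rpl39 used mainly in testis, did not. Rpl10l was at 0 CPM in 9 libraries and at 0.265 CPM in male axotomy 2, and Rpl39l did not exceed 0.699 CPM in any library. The muscle paralog Rpl3l passed the filter at 0.0565 to 0.787 CPM in the 10 libraries, and its groups overlapped in both sexes. By contrast, 75 of the 80 genes had a mean above 100 TPM, a level corrected for transcript length and library total. Together the 80 genes held 3.62% to 5.5% of all TPM, with the highest mean level for Rplp1, a P stalk protein, at 1900 TPM.

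In axotomized DRG nearly the whole set moved upward by a small and similar amount. In females, 59 of the 78 genes were upregulated (75.6%), against 10.5% of all genes tested. In males, 76 of 78 were upregulated (97.4%), against 22.6% of all genes tested. All 59 of the female genes were among the 76 called in males, and 8.09% of all genes tested were upregulated in both sexes. The median log2FC of the 78 genes was 0.409 in females (1.33-fold) and 0.654 in males (1.57-fold), while the median of all genes tested was -0.001 in females and 0.037 in males. The middle range of the members, between the quartiles, was 0.355 to 0.485 in females and 0.499 to 0.781 in males, above the upper quartile of all genes tested, which was 0.219 in females and 0.353 in males.

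No member was downregulated in either sex (0 by edgeR, 0 at an unadjusted p below 0.05 and 0 by DESeq2 in each sex). Of all 20836 genes tested, edgeR called 2022 downregulated in females and 4039 in males. An increase of over 1.5-fold was called for 2 genes in females (2.56%, against 4.32% of all genes tested) and for 51 genes in males (65.4%, against 10.9%). In females the share past that fold was thus near the background, whereas the share upregulated at any size was not. In bulk DRG, more ribosomal protein mRNA per cell and a different mixture of cells cannot be told apart.

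The summed level of the 80 genes was 15950, 15010 and 13330 CPM in female axotomy DRG, against 11790 and 10640 CPM in female sham DRG. In males it was 17110, 13750 and 18740 CPM after axotomy, against 10530 and 10910 CPM after sham. Every axotomy library lay above every sham library of either sex, and the lowest male axotomy library, replicate 2, lay between female axotomy 2 and 3. The group means were 14760 ± 1330 CPM in female axotomy and 11220 ± 813 CPM in female sham DRG, 1.32-fold apart (SD, n = 3 and 2). They were 16530 ± 2540 CPM in male axotomy and 10720 ± 269 CPM in male sham DRG, 1.54-fold apart (SD, n = 3 and 2).

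**Figure D1:**
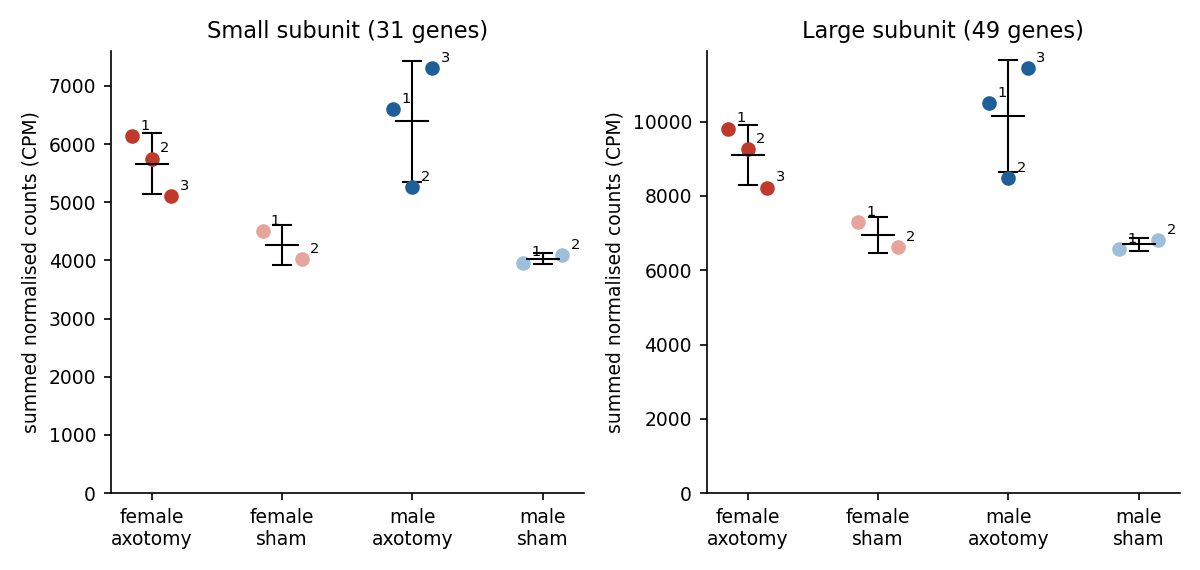
Summed CPM of the small subunit genes (left) and of the large subunit genes with the P stalk (right) in each library. Points are libraries with their replicate number and bars are the mean ± SD of each group. In both panels all axotomy libraries lie above all sham libraries, and male axotomy 2 lies lowest of its group.

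Both subunits rose. In females 26 of 31 small subunit genes, 30 of 44 large subunit genes and all 3 P stalk genes tested were upregulated, with median log2FC of 0.417, 0.394 and 0.489 in the same order. In males the counts were 30 of 31, 43 of 44 and 3 of 3, with medians of 0.679, 0.617 and 0.49. The ratio of the summed large to the summed small subunit CPM was 1.598, 1.61 and 1.611 in female axotomy libraries, against 1.618 and 1.642 in female sham libraries. It was 1.59, 1.613 and 1.566 in male axotomy libraries, against 1.658 and 1.667 in male sham libraries. The ratio was lower in each axotomy library than in each sham library of the same sex, by a few percent, in a sum that weighs abundant genes most.

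Every axotomy library lay above every sham library for 76 of 78 genes in females (26.1% of all genes tested did so) and for 75 of 78 in males (30.4% of all genes tested). The exceptions were Rps27 and Rpl3l in both sexes and Rpl36 in males. Rpl36, a large subunit protein, had 95.8, 60.3 and 95.2 CPM in male axotomy DRG, against 61.1 and 60 CPM in male sham DRG, so that only male axotomy 2 overlapped the shams.

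**Figure D2:**
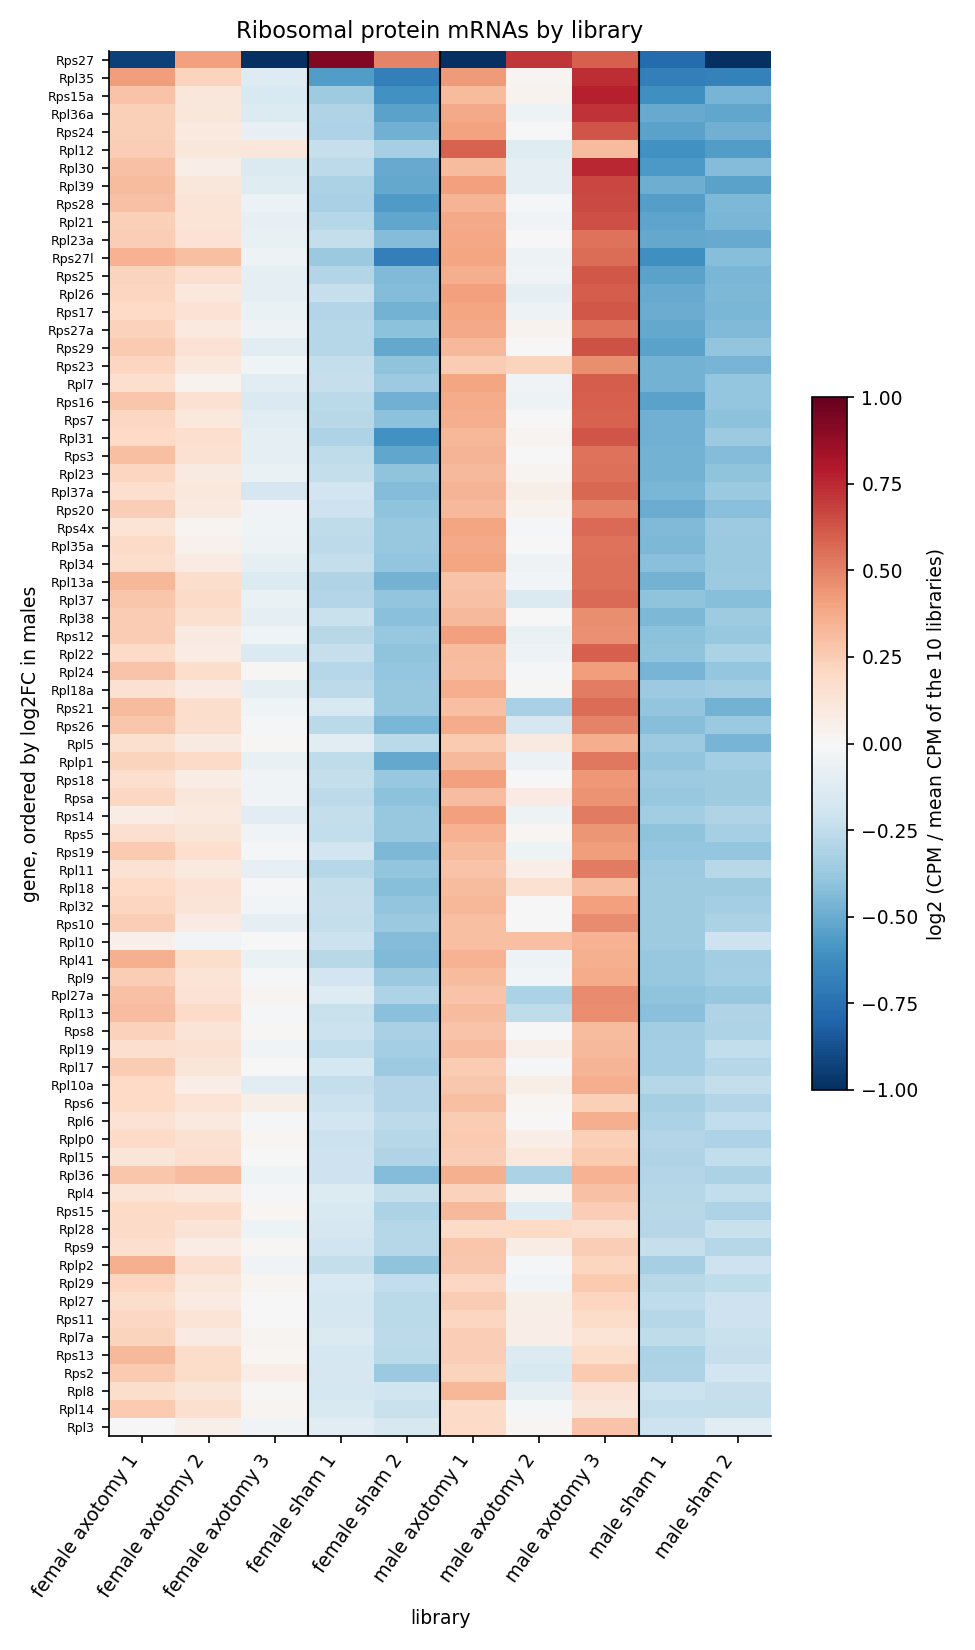
Level of each ribosomal protein gene with more than 1 CPM in all 10 libraries, as log2 of its CPM over its mean of the 10 libraries, with genes in rows ordered by log2FC in males and libraries in columns. Sham columns are blue in nearly all rows, axotomy columns are red or pale, and male axotomy 2 is paler than male axotomy 1 and 3.

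The genes also moved together within groups. Of the 77 genes with a mean of 1 CPM or more over the 10 libraries, female axotomy 1 was the highest of its group for 72 and female axotomy 3 the lowest for 76. Female sham 1 was above female sham 2 for all 77. Male axotomy 3 was the highest of its group for 61 and male axotomy 2 the lowest for 75, and male sham 2 was above male sham 1 for 65. The members are thus not independent of one another, and a shift of 1 library moved nearly all of them.

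The largest log2FC among called genes belonged to Rpl35 in both sexes. Rpl35, a large subunit protein at the exit of the peptide tunnel, had 143, 125 and 97.8 CPM in female axotomy DRG, against 72.8 and 66.8 CPM in female sham DRG (log2FC 0.81 ± 0.20 SE, edgeR padj 0.0257). In males it had 144, 109 and 179 CPM after axotomy, against 66.8 and 67.2 CPM after sham (1.1 ± 0.20 SE, edgeR padj 0.00308). In both sexes the lowest axotomy library was well above the highest sham library. Of the reads of Rpl35 and its near-identical copies, 11.4% were assigned to the copies.

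Rps15a, a small subunit protein, had 189, 167 and 139 CPM in female axotomy DRG, against 121 and 102 CPM in female sham DRG (log2FC 0.57, edgeR padj 0.084). In male DRG it had 193, 159 and 265 CPM after axotomy, against 101 and 112 CPM after sham (0.95, edgeR padj 0.00583). Its groups did not overlap, and male axotomy 3 stood above the other male axotomy libraries. Rps24, a small subunit protein whose human gene is mutated in Diamond-Blackfan anemia, had 309, 235 and 363 CPM in male axotomy DRG, against 162 and 168 CPM in male sham DRG (0.88, edgeR padj 0.00304). In females its log2FC was 0.48 (edgeR padj 0.0703).

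Rps27l is a paralog of Rps27 and a target of p53. It had 30.6, 29.6 and 23.2 CPM in female axotomy DRG, against 18.6 and 15 CPM in female sham DRG (log2FC 0.73, edgeR padj 0.0285). In males it had 31.6, 23.2 and 35.4 CPM after axotomy, against 15.7 and 17.9 CPM after sham (0.84, edgeR padj 0.00676). With Rpl35 it was 1 of the 2 members that passed 1.5-fold in females. Its level per length, 168 TPM on average, was below that of most members.

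Further genes among the largest in females were Rpl41, which encodes a very short peptide at the contact of the subunits (log2FC 0.53, edgeR padj 0.0364), Rps28 at the mRNA exit (0.57, edgeR padj 0.0533), and Rpl31 near the tunnel exit (0.55, edgeR padj 0.0519). In males they were Rpl36a (0.90, edgeR padj 0.00625), Rpl30 (0.87, edgeR padj 0.011) and Rpl39, which lines the peptide tunnel (0.87, edgeR padj 0.0075). Rpl36a, Rpl30 and Rpl39 were not called in females, with log2FC of 0.49, 0.46 and 0.52 and edgeR padj of 0.114, 0.174 and 0.1. The CPM of Rpl39 in females were nevertheless 129, 112 and 95.4 after axotomy, against 83.2 and 72.7 after sham, without overlap.

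Small changes were found for Rpl3 and Rpl4, which have the longest mRNAs of the set apart from paralogs. Rpl3, which reaches to the peptidyl transferase center, had 478, 499 and 470 CPM in female axotomy DRG, against 446 and 429 CPM in female sham DRG (log2FC 0.14 ± 0.09 SE, edgeR padj 0.311). In males it had 550, 487 and 586 CPM after axotomy, against 416 and 444 CPM after sham (0.33 ± 0.09 SE, edgeR padj 0.0147). Rpl3 was the member with the smallest log2FC among those upregulated in males, and the groups did not overlap in either sex although the female difference missed the threshold.

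Rpl4, which lines the upper peptide tunnel, had 470, 462 and 423 CPM in female axotomy DRG, against 390 and 363 CPM in female sham DRG (log2FC 0.26, edgeR padj 0.0831). In males it had 504, 437 and 525 CPM after axotomy, against 351 and 361 CPM after sham (0.46, edgeR padj 0.00465). This was the smallest called change in females. The other small changes in females were those of Rpl5, Rpl8, Rpl6, Rpl7a and Rpl27, with log2FC of 0.27, 0.29, 0.30, 0.31 and 0.31 and edgeR padj of 0.0786, 0.0973, 0.0757, 0.0341 and 0.0292.

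In males the smallest called changes besides Rpl3 were those of Rpl14, Rpl8, Rps2, Rps13 and Rpl7a, with log2FC of 0.34, 0.36, 0.37, 0.38 and 0.39 and edgeR padj of 0.013, 0.0238, 0.0398, 0.0305 and 0.00597. Rps2, at the mRNA entry of the small subunit, had 295, 227 and 302 CPM in male axotomy DRG, against 204 and 221 CPM in male sham DRG. In females it had 302, 287 and 264 CPM after axotomy, against 225 and 195 CPM after sham (0.44, edgeR padj 0.0426). Rps2 and Rps13 were among the 6 of 78 genes whose log2FC was not larger in males, and male axotomy 2 was the lowest of its group for both.

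The size of the change was set beside mRNA length. The effective length of the mRNAs, averaged over libraries, ran between 167 bases for Rpl38 and 1472 bases for Rpl4. Over the 76 genes other than Rps27 and Rpl3l, Pearson's r between log2 effective length and log2FC was -0.411 in females and -0.286 in males, and Spearman's rho was -0.432 and -0.309. With Rps27 included, over 77 genes, Pearson's r was 0.0231 in females and -0.346 in males, and Spearman's rho was -0.378 and -0.335, so that Pearson's r in females rested on leaving out this gene. Over all 20836 genes tested, Pearson's r was -0.164 in females and -0.2 in males, and Spearman's rho was -0.209 and -0.242. These are correlations across genes that share the same libraries, given as a description. Genes with shorter mRNAs had the larger log2FC in the whole transcriptome too, and the part that length or fragment size has in the response of the ribosomal protein genes was not tested.

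**Figure D3:**
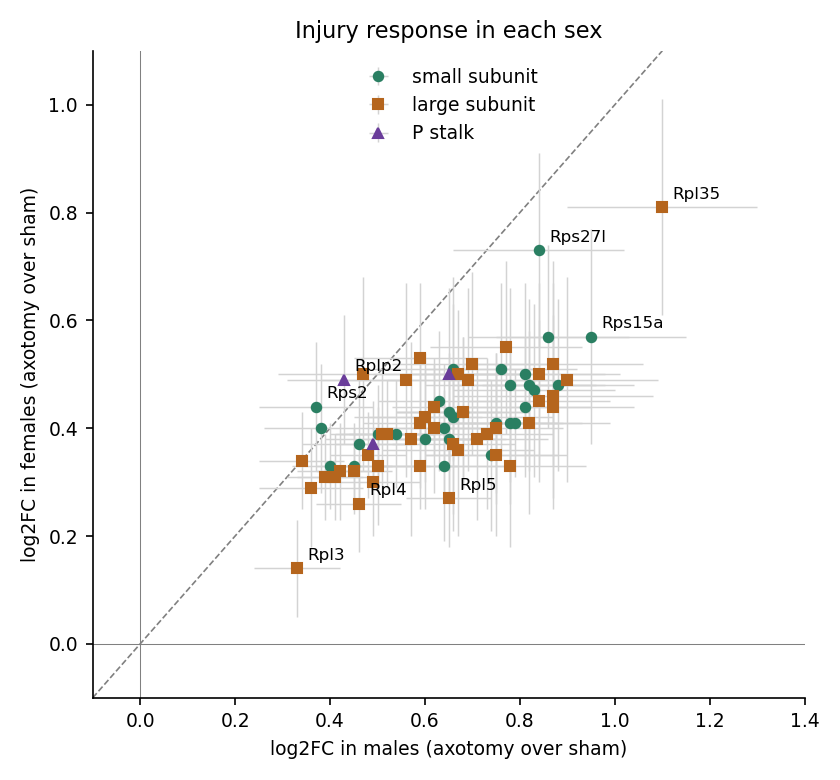
Log2FC of 76 ribosomal protein genes in males (x axis) and females (y axis), with bars of 1 standard error; the dashed line marks equal change, and Rps27 and Rpl3l are left out. All points lie above 0 on both axes and most lie below the dashed line, with Rpl35 farthest from the origin and Rpl3 nearest to it.

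The P stalk recruits the elongation factors to the large subunit. Rplp0 had 378, 368 and 337 CPM in female axotomy DRG, against 286 and 272 CPM in female sham DRG, and the edgeR padj of its log2FC of 0.37 was 0.0172. In males Rplp0 had 398, 348 and 391 CPM after axotomy, against 271 and 268 CPM after sham (0.49, edgeR padj 0.00226). Rplp1 rose by a log2FC of 0.50 in females and 0.65 in males (edgeR padj 0.0614 and 0.01), and Rplp2 by 0.49 and 0.43 (edgeR padj 0.027 and 0.0211). Rplp2 was another of the few genes with the larger log2FC in females.

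Among small subunit genes of known role, Rps6, the substrate of the S6 kinases downstream of mTOR, had 330, 316 and 299 CPM in female axotomy DRG, against 248 and 234 CPM in female sham DRG (log2FC 0.39, edgeR padj 0.0204). In males Rps6 had 353, 292 and 338 CPM after axotomy, against 228 and 235 CPM after sham (0.50, edgeR padj 0.00285). Rpsa, also known as a laminin receptor, rose by 0.43 in females and 0.65 in males (edgeR padj 0.0313 and 0.00237). Rps19, the gene most often mutated in human Diamond-Blackfan anemia, rose by 0.45 and 0.63 (edgeR padj 0.05 and 0.00619). Rps14 had a log2FC of 0.33 in females (edgeR padj 0.158) and rose by 0.64 in males (edgeR padj 0.00791).

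Among large subunit genes of known role, Rpl11, which with Rpl5 and 5S rRNA can bind Mdm2 and so stabilize p53, rose by a log2FC of 0.40 in females and 0.62 in males (edgeR padj 0.0534 and 0.00407). Rpl5 rose by 0.27 and 0.65 (edgeR padj 0.0786 and 0.00129). With the counts of its near-identical copies added, a choice made after seeing the data, its log2FC were 0.33 and 0.61 (edgeR padj 0.102 and 0.00471). With protein-coding transcripts only, they were 0.24 and 0.56 (edgeR padj 0.133 and 0.00335). Rpl5 was thus not called in females under either setting. Rpl13a, which in human monocytic cells can repress inflammatory mRNAs when released from the ribosome, rose by 0.52 and 0.70 (edgeR padj 0.0687 and 0.0101). Rpl38, needed in mouse embryos for the translation of Hox mRNAs, rose by 0.43 and 0.68 (edgeR padj 0.0668 and 0.00496). Rpl10a rose by 0.33 and 0.50 (edgeR padj 0.067 and 0.00581). Rpl22, needed for T cell development in mice, had 130, 120 and 103 CPM in female axotomy DRG, against 97.1 and 86.3 CPM in female sham DRG (0.36, edgeR padj 0.167), and rose by 0.67 in males (edgeR padj 0.0103).

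The 2 members not called in males were Rpl3l and Rps27. Rps27, a zinc finger protein of the small subunit, had 20.8, 52.8 and 14.4 CPM in female axotomy DRG, against 75.6 and 56.3 CPM in female sham DRG (log2FC -1.17 ± 0.76 SE, edgeR padj 0.361). In males it had 13.4, 65.2 and 60.1 CPM after axotomy, against 23.3 and 16.3 CPM after sham (1.22 ± 0.80 SE, edgeR padj 0.292). The axotomy libraries of each sex differed several-fold in Rps27, unlike those of any other abundant member.

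Rps27rt, a second gene whose RNA is nearly identical to that of Rps27, had 110, 67.6 and 82.8 CPM in female axotomy DRG, against 18.8 and 25.6 CPM in female sham DRG. In males it had 123, 30.3 and 118 CPM after axotomy, against 58.4 and 66.8 CPM after sham. The sum of both genes was 131, 120 and 97.1 CPM in female axotomy and 94.4 and 81.8 CPM in female sham DRG, and 136, 95.5 and 178 CPM in male axotomy and 81.8 and 83.1 CPM in male sham DRG. The sums did not overlap between axotomy and sham in either sex, in contrast to either gene on its own in males. With the counts of its near-identical copies added, a choice made after seeing the data, Rps27 had a log2FC of 0.42 in females (edgeR padj 0.222) and was upregulated in males by 0.71 (edgeR padj 0.0291).

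Mouse ribosomal protein genes have many processed copies. Against the mRNAs of the 80 genes, 574 other genes had an RNA with at least 95% identity over at least 200 bases and 70% of either RNA, and 72 members had at least 1 such copy. Over all libraries the copies held 6.45% of the summed counts of members and copies. For 10 members they held more than 10%, led by Rpl12 (91.7%), Rpl5 (84.5%), Rpl10 (68%), Rps27 (63%), Rpl27a (37.1%) and Rps23 (27.8%), and the values of these genes are uncertain to that extent. Among the other 68 members tested, 53 were upregulated in females and 67 in males, with median log2FC of 0.41 and 0.65. The summed level of the copies was 1050 CPM on average in female axotomy and 738.8 CPM in female sham DRG, and 1145 CPM in male axotomy and 725.8 CPM in male sham DRG, so that the copies had 1.42-fold and 1.58-fold higher sums after axotomy. Transcripts of the members that are not annotated as protein-coding, such as those with retained introns, summed to 674.0 to 803.7 CPM in female axotomy and 516.9 to 586.1 CPM in female sham libraries. In males they summed to 688.5 to 938.9 CPM after axotomy and 524.7 to 531.1 CPM after sham.

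The start of the genes was read to see what the members share in sequence. The RefSeq table used (GRCm38.p6) held 72 annotated starts of 60 members, and members without an entry were not examined. A run of 8 or more C or T on the gene's own strand within 15 bases of the annotated start was found at 27 of the 72 starts (37.5%), against 12% of 32851 starts of all genes. A C at the start with C or T at the next 4 bases was found at 13 of 72 (18.1%), against 2.51% of all starts. Annotated starts can be several bases off, which this strict form does not allow for. Genes with and without such a run occurred at both ends of the log2FC. Among genes with large log2FC, the longest run was 3 bases for Rpl41 and 4 for Rps28 (large in females) and 5 for Rpl36a (large in males). Among those with small log2FC, it was 4 for Rpl5 and 5 for Rpl27 (small in females) and 3 for Rps13 (small in males). In the other sex, the log2FC of Rpl41 (0.59), Rpl5 (0.65) and Rps13 (0.40) lay between the quartiles of the members. A second annotated start of Rps24 had a longest run of 4. The 30 bases around the start are shown 5′ to 3′, with the longest pyrimidine run in capitals. They are of 3 genes with large and 3 with small log2FC in females, in males or in both, chosen among starts with a run of 8 or more. The annotated start is the base after the first 15. The runs of Rps15a and Rpl4 lie wholly before it, and those of the other genes shown span it.
Rpl35: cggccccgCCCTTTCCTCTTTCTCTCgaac
Rps15a: CTCTCTTTCTgccatcttccctcgccggtg
Rps24: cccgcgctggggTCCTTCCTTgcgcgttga
Rpl4: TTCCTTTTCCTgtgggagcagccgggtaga
Rpl7a: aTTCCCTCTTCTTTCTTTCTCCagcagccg
Rpl14: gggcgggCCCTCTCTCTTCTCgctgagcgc

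These windows lie on GRCm38.p6 at chr2:39005117-39005146 (minus strand) for Rpl35, chr7:118116133-118116162 (minus strand) for Rps15a, and chr14:24490663-24490692 (plus strand) for Rps24. Those of Rpl4, Rpl7a and Rpl14 lie at chr9:64173372-64173401, chr2:26910792-26910821 and chr9:120571502-120571531, all on the plus strand. The run of Rpl35, whose log2FC was the largest, had 18 bases, and that of Rpl7a, whose log2FC was among the smallest, had 21 bases.

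In the 250 bases before to 50 after the start, on either strand, the ETS motif CCGGAAG was found at 26 of 72 starts of members (36.1%), against 8.86% of all starts. The YY1 motif AAGATGG was found at 11 (15.3%), against 6.34%, and the GC box GGGCGG at 42 (58.3%), against 35.7%. The TATA motif TATAAA was found at 6 (8.33%), against 13.6%. Several starts belong to the same gene, and the matches are descriptions of the letters in these windows.

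The larger log2FC in males was examined with the test of the difference between the sexes. The log2FC was higher in males for 72 of 78 genes, with a median difference (male minus female response) of 0.223 and a median standard error of 0.19 per gene. The median difference was 0.111 without male axotomy 3, 0.14 without female axotomy 3, 0.146 without female sham 1 and 0.347 without male axotomy 2. No member was called (0 of 78 by edgeR, against 0.072% of all genes tested, 3 at an unadjusted p below 0.05 and 0 by DESeq2). Over all 20836 genes tested, 2366 had an unadjusted edgeR p below 0.05 in this test. Among the members, the smallest padj was that of Rpl5, with a difference of 0.38 ± 0.13 SE (edgeR padj 0.321). With its near-identical copies added, the difference for Rpl5 was 0.28 ± 0.17 SE (edgeR padj 0.558). The difference in response between males and females therefore did not pass the test for any member.

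Between axotomized males and females, 72 of 78 genes were higher in males, with a median log2FC (male over female) of 0.165. The median was 0.0691 without male axotomy 3 (60 of 78 genes higher in males), 0.0968 without female axotomy 3 (62 of 78) and 0.287 without male axotomy 2 (76 of 78). Rpl10 was called (1 of 78, 1.28%, against 1.63% of all genes tested, 8 at an unadjusted p below 0.05 and 1 by DESeq2). Over all 20836 genes tested, 3191 had an unadjusted edgeR p below 0.05 in this comparison. Rpl10, which is X-linked and joins the large subunit at the last step of its assembly, had 160, 160 and 166 CPM in male axotomy DRG, against 135, 128 and 130 CPM in female axotomy DRG (0.30 ± 0.07 SE, edgeR padj 0.0913). With the counts of its copies added, the log2FC was 0.11 (edgeR padj 0.568) and missed the threshold. The other X-linked members Rps4x, Rpl39 and Rpl36a were not called, with log2FC (male over female) of 0.29, 0.25 and 0.31 and edgeR padj of 0.295, 0.505 and 0.408. After injury, Rps4x had a log2FC of 0.35 in females (edgeR padj 0.118) and rose by 0.74 in males (edgeR padj 0.00358).

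Between male and female sham DRG no member was called (0 of 78 by edgeR, against 0.0432% of all genes tested, 0 at an unadjusted p below 0.05 and 0 by DESeq2), and the median log2FC (male over female) was -0.0605. Over all 20836 genes tested, 682 had an unadjusted edgeR p below 0.05 between the shams. In this comparison 68 of the members had the lower level in males with all libraries. Without female sham 1 the direction turned, with 45 of 78 genes higher in males and a median of 0.0132, and without female sham 2 the median was -0.119. Each of these tests shares its libraries with the tests of injury.

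A single library could decide several of these counts. In females, omitting female sham 2 gave 0 upregulated genes (2.58% of all genes tested in that fit), omitting female sham 1 gave 9 (3.38% of all genes), and omitting female axotomy 1 or 2 gave 12 or 20 (5.53% or 6.47% of all genes). Omitting male sham 1, which enters the female comparison only through the shared fit, gave 36 (7.78% of all genes). The median log2FC stayed between 0.343 and 0.481 with any 1 library left out. With female sham 2 omitted, 77 of 78 genes still had a positive log2FC and 21 had an unadjusted p below 0.05. In males the number was 66 to 76, whichever library was left out. Without male axotomy 2, the library with the lowest ribosomal protein level of its group, the sex difference of the response was called for 21 genes (26.9%, against 10.6% of all genes tested in the same fit) and the difference between axotomized males and females for 45 genes (57.7%, against 17.4% of all genes tested), while leaving out any other library gave 0 members for both. Calls thus became more frequent across the whole transcriptome when this library was left out, and not in the ribosomal protein genes alone.

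**Figure D4:**
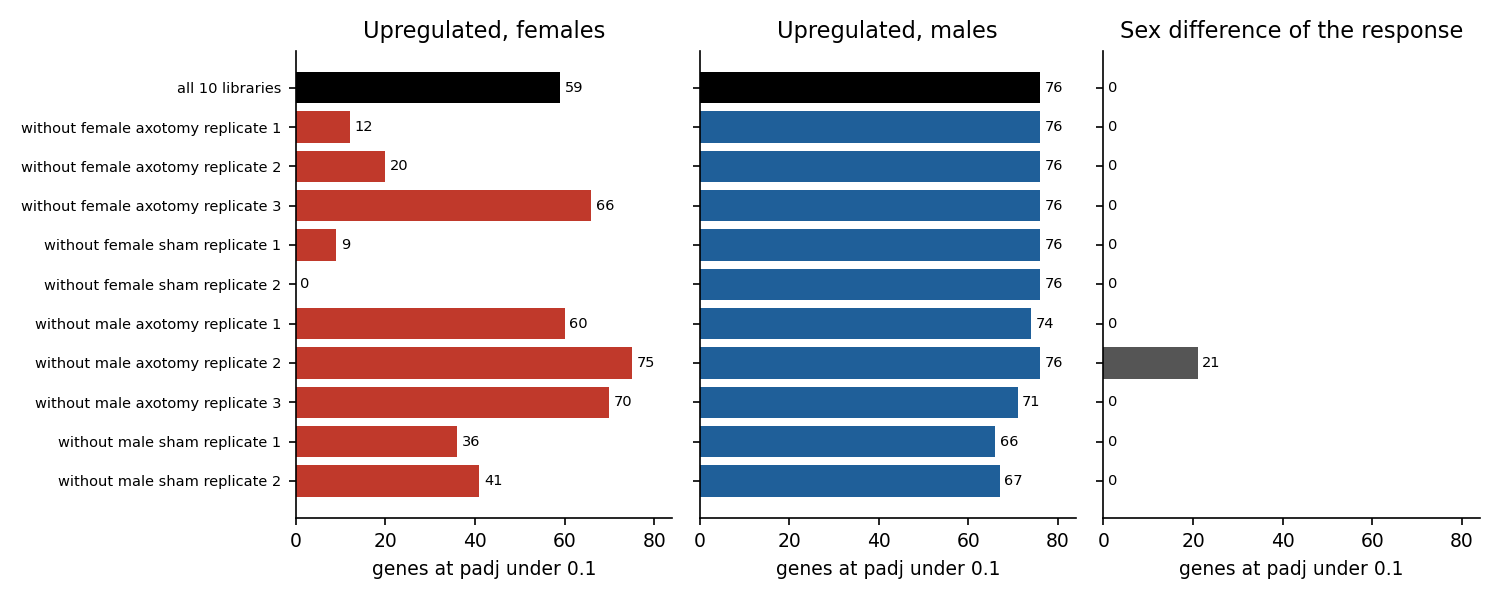
Number of ribosomal protein genes with padj below 0.1 (x axis) with all 10 libraries (black) and with each library left out in turn. The count of upregulated genes in females (left) varies between 0 and 75, that in males (middle) between 66 and 76, and the sex difference of the response (right) is 0 except without male axotomy 2, where it is 21.

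Markers of cell types moved with some of these levels. In males the summed CPM of 6 macrophage markers was 67.87, 58.07 and 93.02 in axotomy DRG, against 29.63 and 31.43 in sham DRG. That of 5 myelinating Schwann cell markers was 9277, 6827 and 8252 CPM in male axotomy DRG, against 5295 and 4750 CPM in male sham DRG. That of 6 fibroblast and meningeal markers was 1290, 856 and 1652 CPM in male axotomy DRG, against 627 and 592.8 CPM in male sham DRG. Male axotomy 2, the lowest of its group for the ribosomal proteins, was the lowest for these 3 lists too, and it had the highest depth of all libraries. The sum of the 6 sensory neuron markers was 6093, 7265 and 5348 CPM in male axotomy DRG, against 7897 and 8381 CPM in male sham DRG, with male axotomy 2 the highest of its group. Nefh fell most, with a mean of 1380 against 2600 CPM (log2FC -0.92, edgeR padj 0.00438), and Isl1, Scn9a and Avil were also called lower. Tubb3 and Prph were not called in males (-0.14 and -0.05). Markers of neutrophils and monocytes were 1.79-fold and those of satellite glia 1.15-fold higher on average in male axotomy DRG than in male sham DRG, without overlap. The part of the cell mixture in the male values was not tested.

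In females the marker lists moved in both directions. The summed smooth muscle and pericyte markers were 287.9, 259.7 and 290.4 CPM in female axotomy DRG, against 215.8 and 233.5 CPM in female sham DRG, without overlap. Rgs5 carried this rise, with a mean of 233 against 169 CPM (log2FC 0.46, edgeR padj 0.0114). Pdgfrb fell (-0.4, edgeR padj 0.0228), and Acta2 and Myh11 were not called (0.06 and -0.02). The sensory neuron markers summed to 6686, 6731 and 6540 CPM in female axotomy DRG, against 7112 and 7719 CPM in female sham DRG, with a lower sum in each axotomy library. Of these genes only Nefh was called, with a mean of 1460 against 2250 CPM (log2FC -0.62, edgeR padj 0.0484). Isl1, Avil and Scn9a were lower without a call (-0.26, -0.15 and -0.3). Tubb3 and Prph went the other way, also without a call (0.08 for each). The fibroblast and meningeal markers summed to 720.7, 642.7 and 636.6 CPM in female axotomy DRG, against 812.4 and 775.3 CPM in female sham DRG, lower without overlap. Among them Col1a1 and Col1a2 were called lower (log2FC -0.73 and -0.44, edgeR padj 0.0121 and 0.0156), and Lum was not called (0.12). The macrophage markers summed to 53.09, 44.24 and 39.96 CPM in female axotomy and 41.97 and 36.05 CPM in female sham DRG, with overlap, and the myelinating Schwann cell markers to 6645, 5133 and 4510 CPM in female axotomy and 7473 and 5339 CPM in female sham DRG, also with overlap. The erythrocyte markers Hba-a1, Hbb-bs and Alas2 summed to 410.8 to 1347 CPM in female axotomy and 677.1 to 1003 CPM in female sham libraries, and to 929.5 to 3186 CPM in male axotomy and 483.8 to 545.8 CPM in male sham libraries. As for the males, the part of the cell mixture in the female values was not tested.

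The other gene lists are given by their counts and medians, to be read against the 10.5% of all genes tested that were upregulated in females and the 22.6% in males. For the downregulated counts, the background was 2022 of all 20836 genes tested in females and 4039 in males. Of 8 ribosomal proteins tested whose names the rule left out, 5 were upregulated in females and 7 in males, with a median log2FC of 0.32 and 0.50. The 5 include Rps27rt, with a log2FC of 1.97 in females (edgeR padj 0.0804) and 0.53 in males (edgeR padj 0.516), whose counts are divided with Rps27 as described above. Rack1, a scaffold on the small subunit, rose by 0.31 and 0.47 (edgeR padj 0.0305 and 0.00249), and Rpl36al by 0.43 and 0.70 (edgeR padj 0.0421 and 0.0026). Rpl22l1, the paralog of Rpl22, had a log2FC of 0.37 in females (edgeR padj 0.173) and rose by 0.90 in males (edgeR padj 0.00383).

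Among other parts of the translation machinery, the counts differed from list to list. Of 12 elongation factors and further TOP mRNAs, 7 were upregulated in females and 8 in males, and 1 was downregulated in males (medians 0.28 and 0.40). Eef1b2, which exchanges the nucleotide of elongation factor 1, rose by 0.69 and 0.65 (edgeR padj 0.00231 and 0.00154), and the poly(A) binding protein Pabpc1 by 0.41 and 0.48 (edgeR padj 0.00727 and 0.00172). Of 13 subunits of initiation factor 3, 3 were upregulated in females and 7 in males, with 1 downregulated in males (medians 0.11 and 0.17). Of 20 other initiation factors, 5 were upregulated in females and 8 in males, with 2 downregulated in males (medians 0.15 and 0.17). Among these Eif4e, the cap-binding protein, rose by 0.80 and 0.75 (edgeR padj 0.0102 and 0.00524).

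Of 57 genes of ribosome assembly and rRNA processing, 20 were upregulated in females and 30 in males, and 3 were downregulated in males (medians 0.24 and 0.22). Nop58, a core protein of box C/D snoRNPs, rose by 0.46 and 0.91 (edgeR padj 0.0466 and 0.00146), and Nmd3, the export adaptor of the large subunit, by 0.56 and 0.68 (edgeR padj 0.00606 and 0.00126). Of 13 genes of RNA polymerase I, 1 was upregulated in females, and 5 were upregulated and 2 downregulated in males (medians 0.11 and 0.17). Polr1a, its largest subunit, had a log2FC of -0.22 in females (edgeR padj 0.246) and fell by 0.58 in males (edgeR padj 0.0044). The 18 snoRNA host genes tested, many of which also carry TOP tracts, had 9 upregulated in females and 12 upregulated and 1 downregulated in males, with medians of 0.46 and 0.68. Snhg1 rose by 0.92 and 1.5 (edgeR padj 0.0041 and 0.000349), and Gas5 by 0.54 and 0.99 (edgeR padj 0.0234 and 0.000962).

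Of 21 genes of the mTOR pathway, the S6 kinases, the 4E-BPs, the LARP family and Myc, 3 were upregulated and 3 downregulated in females, and 6 were upregulated and 8 downregulated in males (medians -0.06 and -0.05). Eif4ebp1, a repressor of Eif4e, rose by 0.85 and 1.20 (edgeR padj 0.0131 and 0.00152), while Rptor, the scaffold of mTOR complex 1, fell by 0.32 and 0.72 (edgeR padj 0.0625 and 0.00122). Of 14 p53 targets, 5 were upregulated in females, and 7 were upregulated and 1 downregulated in males (medians 0.29 and 0.32). Cdkn1a, the inhibitor of cyclin-dependent kinases, rose by 1.06 and 1.07 (edgeR padj 0.00488 and 0.00207).

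Of 78 mitochondrial ribosomal proteins tested, 10 were upregulated in females, a share near that of all genes, and 29 were upregulated and 8 downregulated in males, with medians of 0.13 and 0.14. Of 80 nuclear subunits of oxidative phosphorylation, 9 were upregulated in females, and 43 were upregulated and 2 downregulated in males, with medians of 0.18 and 0.25. In the 10 lists for which no downregulated gene is given in females (0 of 313 genes by edgeR), 4 genes were lower at an unadjusted p below 0.05 and DESeq2 called 2. Of the named ribosomal protein pseudogenes, 16 of 302 passed the filter, of which 1 was upregulated and 1 downregulated in females and 4 were upregulated and 1 downregulated in males.

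**Figure D5:**
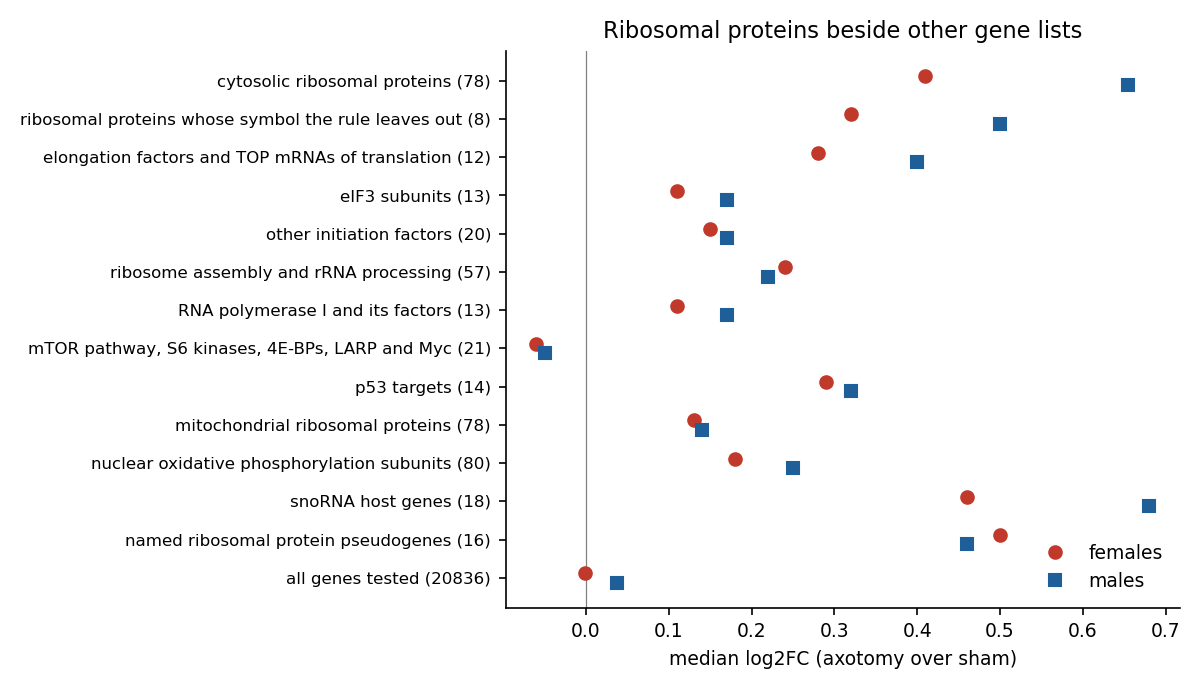
Median log2FC (axotomy over sham) of the cytosolic ribosomal protein genes, of 12 other gene lists and of all genes tested, in females (circles) and males (squares), with the number of genes tested in brackets. The cytosolic ribosomal proteins, at 0.409 and 0.654, and the snoRNA host genes, at 0.46 and 0.68, lie to the right, and mitochondrial ribosomal proteins lie near 0.13.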

How the data were processed

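Libraries of poly(A) RNA were made with the TruSeq Stranded mRNA kit, trimmed with Trimmomatic (0.39) and quantified by the authors with Salmon (1.3.0) against Gencode M27. The deposited values were estimated counts and TPM per transcript. They were summed per gene here (version M27 names, all transcript types), rounded, and tested with edgeR (4.0.16, R 4.3.3) by TMM normalization, an offset for the mean transcript length, filterByExpr (minimum count 10; 20836 genes kept) and a quasi-likelihood model over the 4 groups. CPM values carry the same TMM and length correction. DESeq2 (1.42.0) was an alternative. Salmon divides reads among near-identical RNAs by likelihood, which bears on genes with processed copies. Copies were found with blastn (2.17.0) among Gencode M21 transcripts. Promoters came from RefSeq (GRCm38.p6) and were matched by symbol, so they are of an older build than the deposited files.

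The labels do not say what the replicate numbers stand for, and residuals of same-numbered libraries correlated between -0.124 and 0.27, so libraries were treated as unpaired. The named genes were those with the 6 largest and 6 smallest log2FC among called members in each sex, members called between the sexes, members of fixed roles, and for other lists up to 3 with the smallest p. The members and lists were chosen with earlier results of these data known. The alternatives were other normalizations (RLE, upper quartile, TMM without ribosomal protein and mitochondrial genes), DESeq2, no length offset, a filter at a total of 10 counts, only the libraries compared, a replicate block, pseudogenes or near-identical copies added, protein-coding transcripts only, and each library left out.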

Additional observations from a re-analysis of the deposited data

How the results depend on the processing

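With each library left out, upregulated members numbered 0 to 75 in females (59 with all libraries) and 66 to 76 in males (76), and the median log2FC was 0.343 to 0.481 in females and 0.55 to 0.79 in males. Sex differences of the response were called for 0 to 21 members and differences between axotomized males and females for 0 to 45. With RLE factors, upper quartile factors, no filter beyond a total of 10, only the libraries compared, or near-identical copies added (chosen after seeing the data), the difference between axotomized males and females was called for 0 members instead of 1. The gene concerned was Rpl10. With copies added its log2FC was 0.11 (edgeR padj 0.568). With the other settings of this list it was 0.28 to 0.30, and edgeR padj was 0.102 to 0.188. The cause was not tested. With the replicate block, 51 members were upregulated in females and 75 in males. With DESeq2, 71 members were upregulated in females and 76 in males. The log2FC of Rps27 in females was 0.42 with copies added, against -1.17. That of Rpl3l, at under 1 CPM, ranged between -0.56 and 1.78 in females and between -0.89 and 0.11 in males over the single libraries omitted. With 2 sham libraries per sex, leaving out 1 leaves a lone sham, assumed to vary like the other groups, and small fold changes remain near the limit of this depth and number of libraries.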
